A study of Mus musculus with 30 samples.

Results

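The IL-17, IL-22 and IL-23 axis was followed in inflamed mouse skin through 7 genes taken by symbol: the cytokine genes Il17a, Il17f, Il22, Il23a and Il12b and the receptor genes Il17ra and Il23r. On the array, 5 of the 7 had probe sets under their symbols, out of 22121 symbols, and no probe set was found under Il17f or Il23r. The 5 genes had 7 probe sets among the 45037 that are not controls. Of these 7, 6 passed the filter on low values and were tested, and 1 of the 2 for Il12b was left out. The 6 are not independent, since 2 of them read Il17ra.

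IL-17A and IL-22 are cytokines of type 17 lymphocytes, which include T helper cells, gamma delta T cells and innate lymphoid cells. IL-23, a pair of chains made by dendritic cells and macrophages, sustains these lymphocytes, and keratinocytes answer IL-17A and IL-22 with antimicrobial proteins, neutrophil chemokines and the keratins of thickened epidermis. In skin the axis is best known from psoriasis, where antibodies against IL-17A or IL-23 are used as treatment.

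RNA from whole back skin was measured on 30 Affymetrix Mouse Genome 430 2.0 arrays, with 3 biological replicates in each of 10 groups, and this number of arrays limits the precision of every value. Female mice of mixed 129–C57BL/6 background, 8 to 12 weeks old, were either WT or null for D6, a receptor that takes up and degrades inflammatory CC chemokines. Shaved skin received 3 applications of 50 µM TPA, a phorbol ester that inflames skin, in acetone at intervals of 24 h. It was taken 1, 2, 4 or 6 days later, and the day 0 mice of each genotype had acetone alone, although some labels call them untreated.

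The genotype labels were checked with Ccbp2, the gene of D6. On 1 of its 3 probe sets (1422112_at) the 15 WT arrays read 4.15 to 5.76 in log2 intensity and the 15 D6-deficient arrays 3.30 to 3.86, with no overlap. The second (1422111_at) read 5.14 to 6.26 in WT and 4.55 to 5.42 in D6-deficient skin, and the third (1437937_at) overlapped throughout, at 6.69 to 8.54 and 6.59 to 8.09. As a check of the tissue, the keratinocyte list of 10 genes had a mean of 9.56 to 11.50 over the day 4 arrays.

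Values are log2 intensities and differences between them, so that 1 unit is a doubling. A gene is said to rise, fall or differ only where the adjusted p from limma, over all 36029 tested probe sets of that comparison, was under 0.05. For each gene 3 questions were asked: how TPA changed it from day 0 in each genotype, whether the genotypes differed on the same day, and whether their changes from day 0 differed.

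Il17a and Il22 were the members that moved with both TPA and genotype, so sequences at their promoters are shown first. Il17a lies beside Il17f on chromosome 1. Il22 lies on chromosome 10 beside Iltifb, a near-identical copy, with Ifng next. The Il22 probe set matches both Il22 and Iltifb, so the 2 transcripts cannot be told apart, and Il22 stands for both here. The Il17a promoter is given as the 250 bases before its start, chr1:20730655-20730904 on the plus strand of GRCm38.p6. For Il22, 30 bases around its TATA box are given, chr10:118204782-118204811, also on the plus strand, a stretch that lies before the start used for the window but within the annotated span of Il22. Capitals mark, from 5′ to 3′, a match to the pattern TGANTCA and a TATA box in Il17a, and a TATA box in Il22.
Il17a: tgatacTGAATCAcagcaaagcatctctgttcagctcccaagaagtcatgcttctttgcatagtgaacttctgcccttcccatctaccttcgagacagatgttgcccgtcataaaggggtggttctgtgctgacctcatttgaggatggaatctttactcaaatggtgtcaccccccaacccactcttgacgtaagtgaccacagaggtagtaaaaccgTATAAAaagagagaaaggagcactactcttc
Il22: tgtcccgatggcTATAAAagcagcaacttc

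Motifs were searched on both strands of 32851 promoter windows of 250 bases, and no matches in the Il17a window overlapped. The AP-1 element TGACTCA, the sequence bound by the phorbol ester-responsive factors Fos and Jun, was held by 4.46% of windows and by none of the members' windows. The looser pattern TGANTCA, which takes any base at its centre and so includes that element, was held by 6.75%, and Il17a had 1 match, TGAATCA, 244 to 238 bases before the start. The TATA box TATAAA was held by 12.4%, with 1 match in Il17a at 31 to 26 bases and 1 in Il22 at 170 to 165 bases. The STAT element TTCNNNGAA was held by 7.02% and matched in neither. Windows were available for 5 of the 7 members: Il17f held 1 TATA box, and Il23r and Il12b held none of these 4 sequences. These matches describe the letters only.

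The tested probe sets that rose with TPA were most on day 2 in WT skin and on day 4 in D6-deficient skin. The WT order held in this fit but not in all. Il12b on day 2 was lost with no filter on low values (adjusted p = 0.0541). In fits to each comparison's own arrays, Il12b on day 2 (0.13) and Il23a on day 4 (0.102) were lost in WT skin. Those fits gained Il17a (0.0435) and Il22 (0.00854) in WT skin on day 4. In WT skin, 4 of the 6 rose by day 2, when 26.1% of all tested probe sets passed in either direction. These 4 were Il17a, Il22, Il23a and Il12b. By day 4 in WT skin 3 of the 6 rose (39.1% of all passed; 17.3% rose and 21.8% fell), namely Il23a and both probe sets of Il17ra. In D6-deficient skin 5 of the 6 rose by day 4 (41.1% of all passed; 18.8% rose and 22.4% fell), all but Il12b. At the other times WT skin had 0 of 6 in limma on day 1 (0 at unadjusted p under 0.05; 24% of all passed) and 1 on day 6 (22.1%), a probe set of Il17ra. D6-deficient skin had 0 of 6 in limma on days 1, 2 and 6, with 2, 2 and 0 at unadjusted p under 0.05, while 36.3%, 38.1% and 31.7% of all tested probe sets passed. The WT count on day 4 is near the share over all tested, and 2 of its 3 probe sets read 1 gene, so nothing is read from it about the members.

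Between the genotypes on the same day, 2 of the 6 probe sets differed on day 4, Il17a and Il22, both higher in D6-deficient skin, where 0.513% of all tested probe sets differed (0.289% higher and 0.225% lower). On days 0, 1, 2 and 6 limma called 0 of 6, with 0, 0, 1 and 2 at unadjusted p under 0.05, and the background was 1.57%, 0.0555%, 4.45% (2.46% higher, 1.99% lower) and 0.125%. Testing the difference between the changes from day 0, 1 of the 6 passed on day 4, Il22, against 0.608% of all (0.192% higher and 0.416% lower). On days 1, 2 and 6 this count was 0 in limma and 0 at unadjusted p under 0.05, against 0.0194%, 5.4% (2.78% higher, 2.62% lower) and 0.025% of all. Il22 entered the 6 through the groups in which it was high, D6-deficient day 4 foremost, so the day 4 counts are not independent of the filter.

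**Figure D1:**
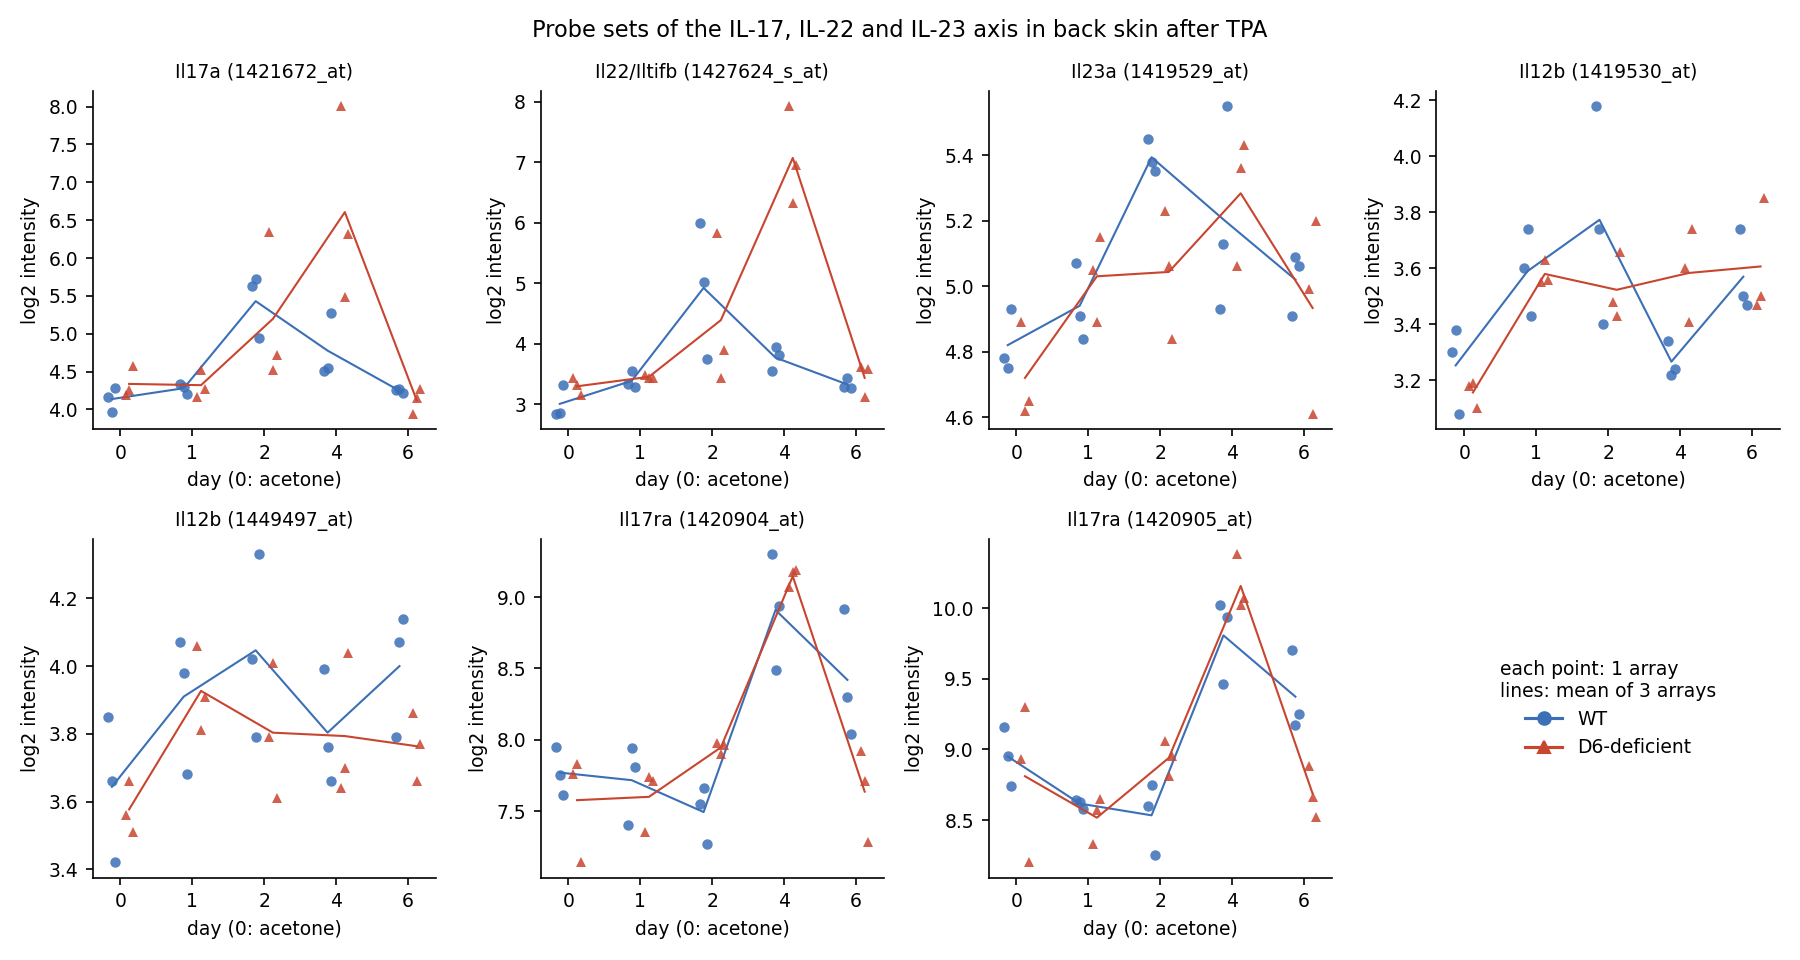
Log2 intensity of the 7 member probe sets against days after the last TPA application, with 1 point for each array and lines through the means of 3 arrays for WT and D6-deficient skin. Il17a and Il22 stand highest in D6-deficient skin on day 4, at means of 6.61 and 7.07.

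Il17a encodes IL-17A, the cytokine that gives type 17 cells their name. In WT skin its probe set (1421672_at) read 4.16, 3.97 and 4.28 on day 0 and 4.34, 4.30 and 4.20 on day 1. On the later days the WT arrays read 5.63, 5.72 and 4.94 on day 2, 4.51, 4.55 and 5.27 on day 4, and 4.25, 4.27 and 4.22 on day 6. WT Il17a thus stood highest on day 2, where all 3 arrays lay above every day 0 array. In D6-deficient skin it read 4.19, 4.25 and 4.57 on day 0, 4.17, 4.52 and 4.27 on day 1, and 6.35, 4.52 and 4.72 on day 2. The D6-deficient arrays then read 8.01, 5.49 and 6.32 on day 4 and 3.94, 4.15 and 4.27 on day 6. On day 4 all 3 D6-deficient arrays lay above all 3 WT arrays, with 1 of them far above the other two, and on day 2 the D6-deficient group rested on 1 high array.

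The level of Il17a in WT skin rose by 1.29 (SE 0.42, 2.45-fold, adjusted p = 0.0249) by day 2, higher in 3 of 3 arrays, and stood 0.64 above day 0 on day 4 (adjusted p = 0.243), with 3 of 3 arrays above all of day 0. In a fit to the arrays of that comparison alone the day 4 value passed (adjusted p = 0.0435). In D6-deficient skin it was 0.86 above day 0 on day 2 (adjusted p = 0.115) and rose by 2.27 (SE 0.42, 4.82-fold, adjusted p = 0.000121) by day 4, higher in 3 of 3 arrays. In bulk skin, more cells of a type and more RNA per cell cannot be told apart, nor can fewer cells and less RNA per cell. The WT call on day 2 was lost without any 1 of 4 arrays: WT day 0 replicate 1 (1.30, adjusted p = 0.0573) or 2 (adjusted p = 0.0722), or WT day 2 replicate 1 (1.19, adjusted p = 0.0767) or 2 (1.15, adjusted p = 0.0968). The D6-deficient day 2 value passed without D6-deficient day 2 replicate 2 (1.20, adjusted p = 0.0489).

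Set against WT on the same day, D6-deficient skin had 1.83 more Il17a on day 4 (SE 0.42, 95% interval 0.96 to 2.70, 3.56-fold, adjusted p = 0.0447), with 3 of 3 arrays above all WT arrays. The differences on the other days were 0.20 on day 0, 0.04 on day 1, -0.23 on day 2 and -0.13 on day 6 (adjusted p = 0.889, 0.989, 0.872 and 0.963). Relative to day 0, the day 4 difference was 1.63 (95% interval 0.40 to 2.86, adjusted p = 0.253), which did not pass, so a larger change from day 0 was not shown for Il17a. The same-day call on day 4 was near the threshold. It was lost without WT day 4 replicate 1 (1.70, adjusted p = 0.146) or 2 (1.72, adjusted p = 0.188), and without D6-deficient day 4 replicate 1 (1.13, adjusted p = 0.231) or 3 (1.98, adjusted p = 0.0597). It also missed the threshold with a term for hybridization signal (1.86, adjusted p = 0.0516) and in a fit to the 6 day 4 arrays alone (adjusted p = 0.303).

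Il22 encodes IL-22, which acts on epithelial cells rather than leukocytes. In WT skin its probe set (1427624_s_at) read 2.84, 2.86 and 3.32 on day 0, 3.33, 3.55 and 3.28 on day 1, and 6.00, 5.02 and 3.75 on day 2. Later WT arrays read 3.55, 3.95 and 3.81 on day 4 and 3.28, 3.43 and 3.27 on day 6. All 3 WT arrays of day 2 lay above all of day 0, with a wide spread. In D6-deficient skin Il22 read 3.43, 3.31 and 3.15 on day 0, 3.48, 3.44 and 3.44 on day 1, and 5.83, 3.44 and 3.90 on day 2. On day 4 the D6-deficient arrays read 7.93, 6.32 and 6.96, and on day 6 they read 3.61, 3.12 and 3.58. The lowest D6-deficient array of day 4, at 6.32, lay above every array of the other 9 groups. The mean of Il22 over all arrays, 4.01, is low, and 10 arrays lay above the lowest mean kept by the filter, so its place among the tested probe sets rests on the groups in which it was high. The highest of these was D6-deficient day 4 (mean 7.07), the group then compared with WT. Its passing the filter was therefore not independent of that comparison.

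By day 2 Il22 rose in WT skin by 1.92 (SE 0.46, 3.78-fold, adjusted p = 0.00308), in 3 of 3 arrays, and on day 4 it was 0.77 above day 0 (adjusted p = 0.196), again with 3 of 3 arrays above all of day 0. In a fit to the arrays of that comparison alone this day 4 value passed (adjusted p = 0.00854). D6-deficient skin had it 1.09 above day 0 on day 2 (adjusted p = 0.0647), and by day 4 it rose by 3.77 (95% interval 2.82 to 4.72, 13.7-fold, adjusted p = 5.35e-07), in 3 of 3 arrays. The day 0 arrays of both genotypes all lay below 3.725, the lowest mean kept by the filter. These folds are therefore taken against signals not shown to be above background. The D6-deficient day 2 value, which rests on replicate 1, passed without replicate 2 (1.57, adjusted p = 0.0145) or replicate 3 (1.34, adjusted p = 0.0484) of that group.

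On day 4 Il22 in D6-deficient skin exceeded that in WT by 3.30 (95% interval 2.35 to 4.25, 9.82-fold, adjusted p = 0.000467), with 3 of 3 arrays above all WT arrays. The difference was 0.29 on day 0, -0.53 on day 2 and 0.11 on day 6 (adjusted p = 0.843, 0.659 and 0.972). Its change from day 0 to day 4 was also larger in D6-deficient skin, by 3.00 (SE 0.65, 95% interval 1.66 to 4.35, 8.01-fold, adjusted p = 0.0309). The day 0 arrays behind this fold all lay below the lowest mean kept, so it too is taken against signals not shown to be above background. The same-day difference and the difference relative to day 0 also passed with no filter on low values (adjusted p = 0.000478 and 0.0346). Relative to day 0, the call was lost without WT day 0 replicate 1, 2 or 3 (adjusted p = 0.0557, 0.0592 and 0.0819), WT day 4 replicate 1 or 2 (0.0674 and 0.0713), or D6-deficient day 0 replicate 1 or 3 (0.0741 and 0.0877). Without D6-deficient day 4 replicate 1 it was 2.57 (adjusted p = 0.0788). The same-day difference on day 4 passed without each of the 6 arrays in turn, at 2.87 to 3.67.

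Over consecutive days, the step of Il22 from day 2 to day 4 was the only member step that differed between the genotypes. From day 2 to day 4 in WT skin 2 of the 6 probe sets rose, those of Il17ra (14.5% of all passed), and in D6-deficient skin 4 rose, Il17a, Il22 and both of Il17ra (16.3%). Il22 rose by 2.68 in D6-deficient skin over this step (SE 0.46, 6.41-fold, adjusted p = 0.0002) and its change in WT skin was -1.15 (adjusted p = 0.101). These steps differed by 3.83 (SE 0.65, 95% interval 2.49 to 5.17, adjusted p = 0.0026), and Il22 was the only 1 of the 6 whose step differed (0.841% of all). In a fit to the arrays of this comparison alone that call was lost (3.83, adjusted p = 0.0802). Il17a rose by 1.41 in D6-deficient skin (adjusted p = 0.0222), with a change of -0.65 in WT skin (adjusted p = 0.355) and a difference between the steps of 2.07 (adjusted p = 0.115). From day 4 to day 6 in D6-deficient skin 4 of the 6 fell (31.4% of all passed): Il17a by 2.49 (adjusted p = 7.29e-05), Il22 by 3.63 (adjusted p = 1.61e-06) and both Il17ra probe sets. All 3 arrays of day 6 lay below all 3 of day 4 for each.

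Single arrays decided some of these steps. The D6-deficient step of Il17a from day 2 to day 4 was lost in a fit to its own arrays (adjusted p = 0.209) and without D6-deficient day 2 replicate 2 (adjusted p = 0.148) or 3 (adjusted p = 0.112) or day 4 replicate 1 (0.71, adjusted p = 0.23). The Il17a difference between the steps passed without D6-deficient day 2 replicate 1 (2.64, adjusted p = 0.0133) or day 4 replicate 2 (2.62, adjusted p = 0.0218). The WT step of Il22 from day 2 to day 4 passed without WT day 2 replicate 3 (-1.74, adjusted p = 0.0137). So did its WT step from day 1 to day 2 (2.12, adjusted p = 0.0187). The D6-deficient step of Il23a from day 4 to day 6 passed without D6-deficient day 4 replicate 1 (-0.46, adjusted p = 0.0377) or day 6 replicate 3 (-0.48, adjusted p = 0.0208).

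**Figure D2:**
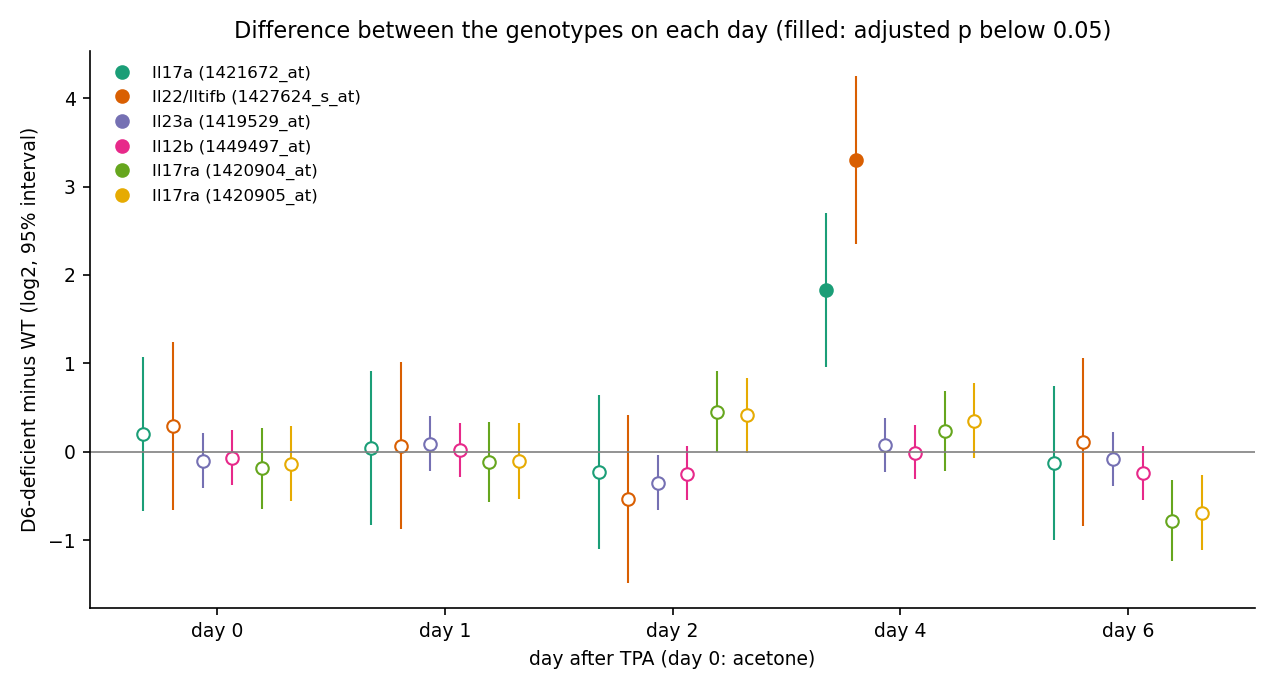
Difference in log2 intensity, D6-deficient minus WT, for each tested member probe set on days 0, 1, 2, 4 and 6, with 95% intervals and filled points where adjusted p was under 0.05. The filled points are Il17a (1.83) and Il22 (3.30) on day 4.

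In order of level, Il17a stood at 6.61 ± 1.29 (SD, n = 3) in D6-deficient skin on day 4, 5.43 ± 0.43 in WT on day 2, 5.20 ± 1.00 in D6-deficient on day 2 and 4.78 ± 0.43 in WT on day 4, and the other 6 groups lay between 4.34 and 4.12. Each group's arrays overlapped those of the next in this order. Il22 stood at 7.07 ± 0.81 in D6-deficient skin on day 4, clear of the next group, WT on day 2 at 4.92 ± 1.13. It was followed by 4.39 ± 1.27 in D6-deficient skin on day 2 and 3.77 ± 0.20 in WT on day 4, with the other 6 groups below it at means of 3.46 to 3.00. Its lowest array, at 3.55, was not clear of all of these, as the highest arrays of WT day 1 and D6-deficient day 6 read 3.55 and 3.61. Both genes thus had the same 4 groups at the top in the same order. Of the motifs searched, the windows of Il17a and Il22 both hold a TATA box, at different distances from the start, and that of Iltifb holds none.

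The pattern most like that of Il17a over the 30 arrays was that of Il22, with Pearson r = 0.935, ahead of Slc26a4 (0.826) and U90926 (0.806), and for Il22 these were Il17a, Slc26a4 (0.858) and U90926 (0.822). As a description of the 30 arrays, Pearson's r between Il17a and Il22 was 0.94 and Spearman's rho 0.77. Without the 2 arrays farthest from the median of Il17a they were 0.90 and 0.72 (n = 28), and without the D6-deficient day 4 arrays 0.89 and 0.69 (n = 27). Within WT they were 0.89 and 0.96, and within D6-deficient arrays 0.94 and 0.65 (n = 15 each). Without days 2 and 4, r was 0.15 and rho 0.24 (n = 18), so the relation rested on the days when the genes were high. As deviations from the group means, r was 0.79 and rho 0.58, so arrays high in Il17a within their group tended to be high in Il22.

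**Figure D3:**
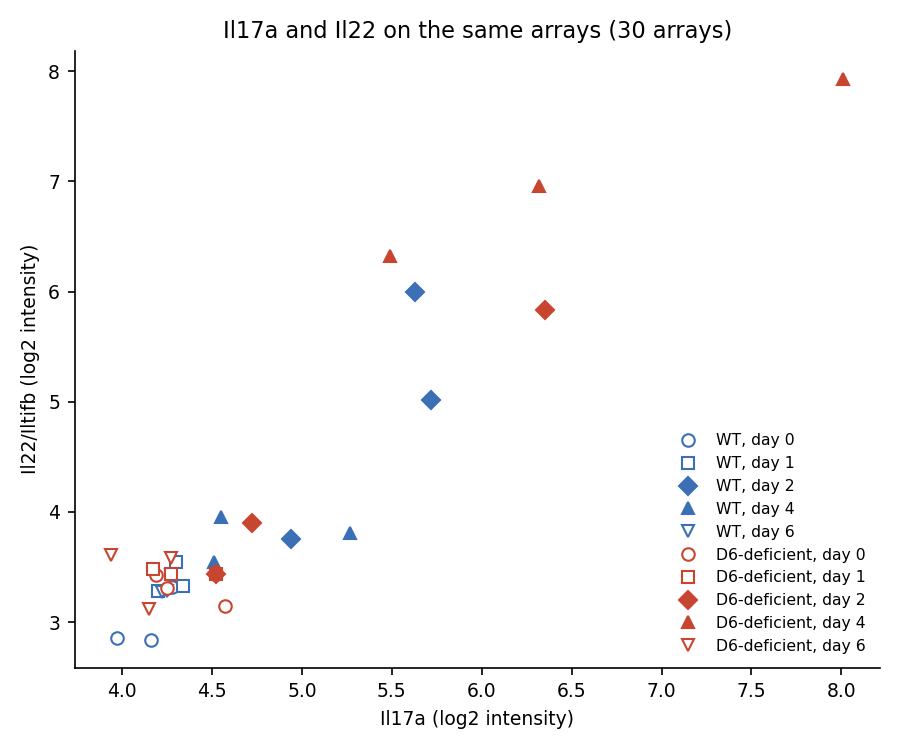
Log2 intensity of Il22 (vertical) against Il17a (horizontal), with 1 point for each of 30 arrays, colored by genotype and marked by day. The 3 D6-deficient arrays of day 4 lie highest in Il22. In Il17a 1 of them, at 5.49, lies left of WT day 2 arrays at 5.63 and 5.72. The day 0, 1 and 6 arrays lie together at the lower left.

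Hybridization controls, spiked in at fixed amounts, split the arrays into 13 dim and 17 bright ones. Both kinds were in every group but D6-deficient day 6, whose 3 arrays were all bright. On day 4, 1 WT and 2 D6-deficient arrays were dim, and 2 WT and 1 D6-deficient bright. Il17a differed by 1.36 among the dim and 3.12 among the bright arrays of day 4, and Il22 by 2.69 and 4.24. Each of these differences has an arm of 1 array, the bright D6-deficient one being the array with the highest Il17a and Il22, so they are values only and the sets are too small to say whether the difference held within them. Between Il17a and Il22, r was 0.94 and rho 0.75 among dim and 0.97 and 0.74 among bright arrays.

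Il23a and Il12b encode the chains of IL-23, and Il12b is shared with IL-12. Il23a (1419529_at) ranged from 4.61 to 5.55. WT arrays read 4.78, 4.75 and 4.93 on day 0, 5.45, 5.38 and 5.35 on day 2, and 4.93, 5.13 and 5.55 on day 4. D6-deficient arrays read 4.89, 4.62 and 4.65 on day 0, 5.23, 5.06 and 4.84 on day 2, and 5.06, 5.36 and 5.43 on day 4. In WT skin the day 2 arrays lay above all of day 0, and in D6-deficient skin the day 4 arrays did, while the genotypes overlapped on day 4.

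Il23a rose in WT skin by 0.58 by day 2 (SE 0.15, 1.49-fold, adjusted p = 0.00561, 3 of 3 arrays) and by 0.39 by day 4 (adjusted p = 0.0416). In D6-deficient skin it was 0.32 above day 0 on day 2 (adjusted p = 0.0917) and rose by 0.56 by day 4 (1.48-fold, adjusted p = 0.00365, 3 of 3 arrays). Between the genotypes Il23a differed by -0.35 on day 2 (unadjusted p = 0.0269, adjusted p = 0.23) and by 0.08 on day 4 (95% interval -0.23 to 0.38, adjusted p = 0.942). So this IL-23 chain rose with TPA by an estimated 1.49-fold at most, and no genotype difference passed. The D6-deficient day 2 value passed without D6-deficient day 2 replicate 3 (0.42, adjusted p = 0.05 when rounded). Its WT day 4 call was lost without WT day 0 replicate 1 (adjusted p = 0.0974) or 2 (0.113) or WT day 4 replicate 2 (0.0537) or 3 (0.21, adjusted p = 0.304), and in a fit to its own arrays (0.102).

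The tested Il12b probe set (1449497_at) ranged from 3.42 to 4.33, close to the lowest mean kept, and all neighbouring groups in its order of means overlapped. WT arrays read 3.85, 3.66 and 3.42 on day 0 and 4.02, 3.79 and 4.33 on day 2, which overlap. Il12b rose there by 0.41 (SE 0.15, 1.32-fold, adjusted p = 0.0475), with 2 of 3 arrays above all of day 0. It was 0.23 above day 0 on day 2 and 0.22 on day 4 in D6-deficient skin (adjusted p = 0.249 and 0.251), and the genotypes differed by -0.01 on day 4 (adjusted p = 0.998). The WT call was lost without WT day 0 replicate 2 (adjusted p = 0.087) or 3 (0.30, adjusted p = 0.215), or WT day 2 replicate 1 (0.0794) or 3 (0.26, adjusted p = 0.258), with no filter on low values (0.0541), and in a fit to its own arrays (0.13). The other Il12b probe set (1419530_at), left out as low, ranged from 3.08 to 4.18. In a fit with no filter it rose by 0.52 in WT skin by day 2 (adjusted p = 0.0105) and by 0.43 in D6-deficient skin by day 4 (adjusted p = 0.0218), with a genotype difference of 0.31 on day 4 (adjusted p = 0.491). It also rose in D6-deficient skin by 0.43 by day 1 (adjusted p = 0.0257) and by 0.45 by day 6 (adjusted p = 0.0209), and from day 2 to day 4 in WT skin it fell by 0.51 (adjusted p = 0.0207). With the mean of both probe sets, Il12b rose in D6-deficient skin by 0.39, 0.30, 0.33 and 0.32 on days 1, 2, 4 and 6 (adjusted p = 0.00667, 0.0333, 0.0191 and 0.027), and in WT skin by 0.30 on day 1 and 0.33 on day 6 (adjusted p = 0.0468 and 0.0292). So whether Il12b rose in D6-deficient skin depends on the probe set read.

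Il17ra encodes the receptor chain through which IL-17A, and other IL-17 cytokines, signal. On the brighter of its probe sets (1420905_at) WT arrays read 9.16, 8.95 and 8.74 on day 0 and 10.02, 9.46 and 9.94 on day 4, and D6-deficient arrays read 8.93, 9.30 and 8.20 and then 10.38, 10.02 and 10.07. The other (1420904_at) read 7.95, 7.75 and 7.61 on day 0 and 9.30, 8.49 and 8.94 on day 4 in WT, and 7.76, 7.83 and 7.14 and then 9.07, 9.18 and 9.19 in D6-deficient skin. In both genotypes and on both probe sets the day 4 arrays lay above all of day 0, and the genotypes overlapped on day 4.

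By day 4 Il17ra rose in WT skin by 0.86 on 1420905_at (SE 0.21, 1.81-fold, adjusted p = 0.00189) and by 1.14 on 1420904_at (SE 0.22, 2.21-fold, adjusted p = 0.000224). In D6-deficient skin it rose by 1.35 (2.54-fold, adjusted p = 1.19e-05) and 1.57 (2.97-fold, adjusted p = 4.05e-06), each in 3 of 3 arrays. The genotypes differed on day 4 by 0.35 (adjusted p = 0.62) and 0.23 (adjusted p = 0.826), so the receptor rose in both and no difference passed. Within the dim arrays of day 4 these differences were 0.59 and 0.69, and within the bright ones 0.40 and -0.05.

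From day 4 to day 6 Il17ra fell in D6-deficient skin by 1.47 (adjusted p = 6.73e-06) and 1.51 (adjusted p = 1.23e-05). In WT skin the difference on 1420904_at over this step was -0.49 (adjusted p = 0.119), which passed without WT day 4 replicate 2 (-0.70, adjusted p = 0.0338) or WT day 6 replicate 1 (-0.74, adjusted p = 0.0234). It was still 0.65 above day 0 on day 6 (adjusted p = 0.036), a call lost without WT day 0 replicate 2 (0.0814) or 3 (0.115) or WT day 6 replicate 1 (0.41, adjusted p = 0.226) or 2 (0.0678), or in a fit to its own arrays (0.0829). The steps differed by -1.04 (adjusted p = 0.311) and -1.02 (adjusted p = 0.372), which did not pass. On day 6 the D6-deficient minus WT difference was -0.69 (adjusted p = 0.215) and -0.78 (adjusted p = 0.178). By day 1 the D6-deficient change on 1420905_at, -0.29 (adjusted p = 0.283), passed without D6-deficient day 0 replicate 3 (-0.60, adjusted p = 0.0191). The probe sets of Il17ra followed each other with r = 0.955 over the 30 arrays.

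Among the members, Il17a and Il22 followed Il23a with r of 0.522 and 0.573, and Il17a followed Il12b with -0.031 and Il17ra with 0.508 and 0.439. The genes most like Il23a were Slc28a3 (0.814), Ptk6 (0.807) and Sdcbp2 (0.8), and those most like Il12b were Olah (0.722), 4930422I22Rik (0.72) and Slc5a11 (0.696). For Il17ra, Il4ra (0.927), Rtn4rl2 (0.925) and Cxcl12 (0.92) were most like 1420905_at, and Rtn4rl2 (0.948), Lrg1 (0.925) and Il4ra (0.915) most like 1420904_at. All are Pearson r over 30 arrays that share their groups, given as a description.

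The other genes of the axis were taken from lists, each gene by its brightest probe set. Beside each list's day 4 counts, 39.1% of all tested probe sets passed in WT and 41.1% in D6-deficient skin. Between the genotypes on day 4, 0.513% of all tested passed. Of 7 other ligands of the IL-12 and IL-17 families, 5 were measured and 4 tested. By day 4 in WT skin Il17b rose by 0.68 and Il17d fell by 0.67, and in D6-deficient skin Il17d fell by 0.60, with medians of -0.13 and 0.12 beside 0.01 over all tested probe sets in each. By day 2 in D6-deficient skin Ebi3, a chain of IL-27 and IL-35, rose by 0.94 and Il12a fell by 0.39. Between the genotypes 0 of the 4 passed in limma on day 2 or day 4 (1 and 0 at unadjusted p under 0.05).

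Of 9 further receptor chains, 8 were measured and tested. Il22ra2 encodes the soluble IL-22 binding protein, which blocks IL-22. It read 7.66, 6.79 and 7.41 on day 0 and 6.83, 6.74 and 6.88 on day 2 in WT skin, and 8.37, 7.65 and 8.64 and then 6.16, 5.30 and 4.98 in D6-deficient skin. On day 2 it was 1.34 lower in D6-deficient than in WT skin (0.396-fold, adjusted p = 0.0125, 3 of 3 arrays below all WT), and its change from day 0 was lower by 2.27 (adjusted p = 0.003). By day 4 it fell in WT skin by 1.51 and with D6 absent by 2.57, and the difference between the genotypes that day was -0.13 (adjusted p = 0.956). Il22ra2 was thus lower in D6-deficient skin on day 2, while on day 4, when Il22 differed, no difference in Il22ra2 passed. Any link between Il22ra2 and Il22 was not tested. The day 2 difference was lost without WT day 2 replicate 3 (-1.30, adjusted p = 0.0508) or D6-deficient day 2 replicate 2 (-1.25, adjusted p = 0.073) or 3 (-1.09, adjusted p = 0.097).

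The rest of the receptor list went both ways. By day 4 it had 2 higher and 2 lower in WT skin (Il17re 0.39 and Il12rb1 0.51, Il17rd -1.31 and Il22ra2). In D6-deficient skin 1 was higher and 3 lower (Il10rb 0.54, Il17rc -0.63, Il17rd -1.61 and Il22ra2). These counts are near the share over all tested that passed, 39.1% and 41.1%, and are no result about the list. The medians were 0.09 and -0.22. The other probe sets of Il17re gave 0.11 (adjusted p = 0.58) and 0.20 (adjusted p = 0.40) in WT, so its rise rests on 1 probe set of 3. Il17rc, the partner of Il17ra in the IL-17A receptor, had a change by day 2 that was lower in D6-deficient skin by 0.83 (adjusted p = 0.021), a call lost without any 1 of 5 arrays, WT day 0 replicate 1, WT day 2 replicate 2, D6-deficient day 0 replicate 1 and D6-deficient day 2 replicates 1 and 2 (adjusted p = 0.0537 to 0.0661). Il17re, the receptor chain of IL-17C, had a change by day 4 lower by 0.60 (adjusted p = 0.042), which was lost without any 1 of the 12 arrays of WT and D6-deficient days 0 and 4 (0.0543 to 0.118), and 1 of its other probe sets gave -0.42 (adjusted p = 0.61). In D6-deficient skin by day 4 its brightest probe set gave -0.21 (adjusted p = 0.093) and another -0.85 (adjusted p = 2.3e-05). Whether Il17re fell there thus depends on the probe set. The Il12rb1 rise in WT was lost without WT day 0 replicate 2 or 3 or WT day 4 replicate 1 or 3 (adjusted p = 0.0576 to 0.145). On day 4 itself 0 of the 8 differed between the genotypes in limma (2 at unadjusted p under 0.05), with a median of -0.09 beside -0.01 over all tested.

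All 18 adaptors, kinases and factors of the signalling list were tested. By day 4 in WT skin 11 rose and 3 fell, with a median of 0.64 beside 0.01 over all tested, and in D6-deficient skin 9 rose and 3 fell, with a median of 0.50 beside 0.01. Stat4, a factor downstream of IL-12 and IL-23, rose by 2.57 in WT and 2.85 in D6-deficient skin. Socs3, the feedback inhibitor of Stat3 signalling, rose by 2.19 and 2.28. Arid5a and Zc3h12a, an RNA-binding protein and an RNase that act on IL-17 target transcripts, rose by 1.51 and 1.75 in WT and by 1.80 and 1.36 in D6-deficient skin. Traf5, Traf6 and Tyk2 were the 3 that fell in each genotype, named here because so few fell, and so chosen after their values were seen. Between the genotypes on day 4, 0 of 18 passed in limma (3 at unadjusted p under 0.05), with a median of 0.13 beside -0.01.

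In each of 3 other genotype comparisons 1 of the 18 signalling genes passed, while 1.57% of all tested passed on day 0, 4.45% on day 2 and 5.4% in the change by day 2. For day 2 these counts are near the share over all tested and are no result about the list. Cebpb exceeded its WT level in D6-deficient skin by 0.57 on day 0 (adjusted p = 0.017), lost without WT day 0 replicate 2 or D6-deficient day 0 replicate 1 or 3 (0.0616 to 0.086), and its other probe set gave 0.52 (0.051). Arid5a was higher by 0.40 on day 2 (adjusted p = 0.0225), lost without replicate 1 or 3 of either genotype on day 2 (0.059 to 0.0965). Zc3h12a had a change by day 2 lower by 1.39 (adjusted p = 0.016), lost without replicate 2 of WT day 0, WT day 2 or D6-deficient day 2 or replicate 3 of D6-deficient day 0 (0.052 to 0.0576), and its other probe set gave -0.35 (0.64).

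Of 24 symbols of epithelial targets of IL-17 and IL-22, antimicrobial proteins, chemokines and keratins, 21 were tested, and these rose almost throughout. Il36g, which had no probe set, is another name of Il1f9, which was tested. The mean of the list already stood higher on day 1, at 8.18 against 6.06 on day 0 in WT skin. In D6-deficient skin it was 8.42 against 7.13, and in each genotype all day 1 arrays lay above all of day 0. No change of Il17a or Il22 passed on day 1 in either genotype. Any link between these targets and the members was not tested. By day 2, 18 of 21 rose in WT and 20 in D6-deficient skin, with medians of 2.81 and 3.42, beside 0.00 and -0.01 over all tested. Of all tested probe sets 26.1% passed in WT and 38.1% in D6-deficient skin by day 2, in either direction. By day 4, 20 of 21 rose in each, with medians of 5.08 in WT and 4.24 in D6-deficient skin beside 0.01. The neutrophil chemokine Cxcl5 rose by 8.44 and 8.75, its relative Cxcl3 by 6.17 and 7.00, the β-defensin Defb3 by 7.85 and 6.22 and the keratin Krt6b by 8.12 and 4.38. Ccl20, the ligand that draws CCR6-bearing type 17 cells, was the 1 that did not pass on day 4, at 0.71 (adjusted p = 0.13) and -0.29 (adjusted p = 0.56).

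Between the genotypes on day 4, 0.513% of all tested probe sets differed. Of the 21 targets 1 did (5 at unadjusted p under 0.05), with a median of 0.21 beside -0.01. It was Csf3, the gene of the neutrophil growth factor G-CSF, chosen after its values were seen. Csf3 read 7.96, 6.92 and 8.21 in WT and 9.81, 9.51 and 9.24 in D6-deficient skin on day 4, with no overlap. It was 1.82 higher (SE 0.26, 3.52-fold, adjusted p = 0.0005), and its change from day 0 was larger by 1.81 (adjusted p = 0.021). The latter call was lost without WT day 0 replicate 1, WT day 4 replicate 2, D6-deficient day 0 replicate 1 or 3, or D6-deficient day 4 replicate 1 (adjusted p = 0.0529 to 0.0672).

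On day 2, 5 of the 21 targets differed between the genotypes, where 4.45% of all tested probe sets differed (2.46% higher and 1.99% lower). Cxcl3 read 4.67, 6.67 and 3.55 in WT and 9.43, 10.06 and 8.72 in D6-deficient skin, a difference of 4.44 (21.8-fold, adjusted p = 5.64e-06). Cxcl2 was higher by 3.74 (13.4-fold, adjusted p = 0.000835), Cxcl5 by 2.81 (7.01-fold, adjusted p = 2.11e-05) and Il24 by 1.19 (adjusted p = 0.0099). For Cxcl2, Cxcl3 and Cxcl5 all 3 D6-deficient arrays lay above all WT arrays. Ccl20 went the other way, at 9.50, 7.28 and 9.46 in WT and 7.17, 6.11 and 6.35 in D6-deficient skin, a difference of -2.20 (0.217-fold, adjusted p = 0.00051), with 3 of 3 arrays below all WT. It rose by 2.81 in WT skin by day 2 and stood at -0.56 from day 0 in D6-deficient skin (adjusted p = 0.253), and these changes differed by -3.37. On day 0 S100a8 (2.41), Defb3 (2.99), Krt16 (2.48) and Krt6b (3.51) were already higher in D6-deficient skin, with a median of 0.87 over the list beside 0.00. The Krt6b call was lost without WT day 0 replicate 2 (2.45, adjusted p = 0.145) or 3 or D6-deficient day 0 replicate 1 or 3 (2.54, adjusted p = 0.151). Relative to day 0 the median on day 4 was -0.83 beside 0.00.

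**Figure D4:**
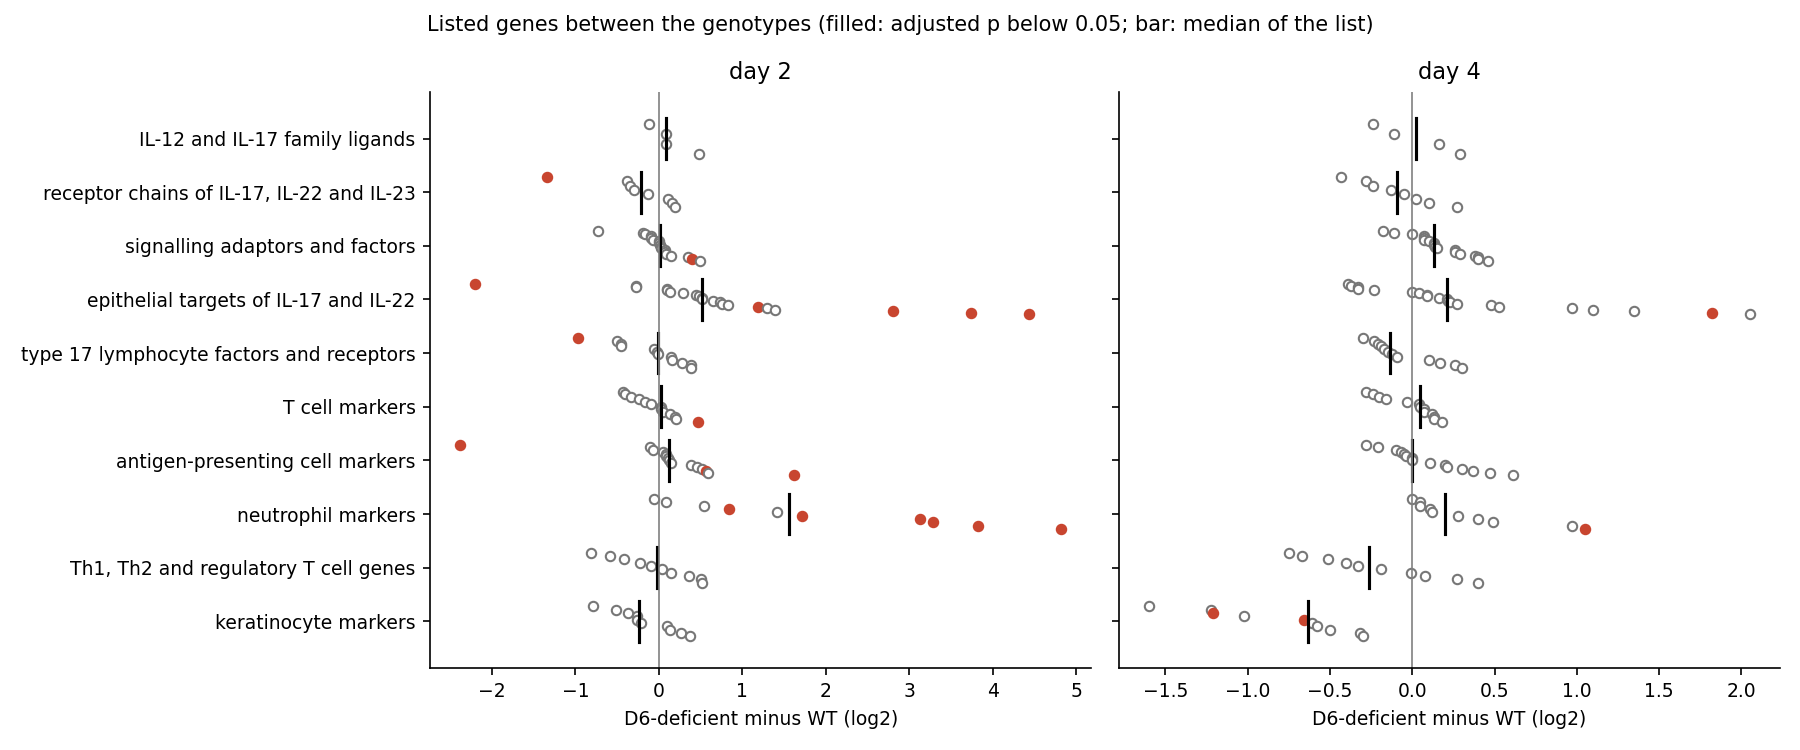
Genotype difference in log2 intensity, D6-deficient minus WT, for each tested gene of the lists on day 2 and day 4, with filled points where adjusted p was under 0.05 and a bar at each list's median. On day 2 the neutrophil markers have the highest median, 1.56, and on day 4 it is 0.20.

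The cells that make and answer these cytokines were followed by marker lists. Of 14 factors and receptors of type 17 lymphocytes 12 were tested. By day 4, 5 rose and 3 fell in each genotype, the same genes in both: Batf (1.16 in WT, 1.13 in D6-deficient), Cxcr6, Il1r1 (1.73 and 1.93), Il7r and Il21r rose, and Rora (-1.23 and -1.83), Ahr (-0.44 and -0.67) and Irf4 (-2.02 and -2.10) fell. Batf and Irf4, factors that act together in type 17 lymphocytes, thus went opposite ways in whole skin. Which cells these genes were read from was not tested. The fall of Ahr in WT was lost without WT day 0 replicates 1, 2 or 3 or WT day 4 replicates 1 or 3 (adjusted p = 0.0519 to 0.137), and other probe sets of Rora and Ahr gave 0.27 (adjusted p = 0.056) and 0.40 (adjusted p = 0.15) in WT. In D6-deficient skin that probe set of Rora rose by 0.34 (adjusted p = 0.018), so the direction for Rora depends on the probe set, and that of Ahr gave 0.26 (adjusted p = 0.35). A further probe set of Rora gave -0.42 in WT (adjusted p = 0.21) and -0.38 in D6-deficient skin (adjusted p = 0.26). The medians were 0.27 in WT and -0.10 in D6-deficient skin, beside 0.01 over all tested, and between the genotypes on day 4 0 of 12 passed in limma (1 at unadjusted p under 0.05), with a median of -0.13. On day 2 Rora was lower in D6-deficient skin by 0.97 (adjusted p = 0.000638), while others of its probe sets gave -0.83 (0.073) and -0.09 (0.8).

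Of 19 T cell marker symbols 13 were tested. For the gamma delta receptor no probe set was found under Trdc, Tcrd, Tcrg or Tcrg-C, while Tcrg-V3 had 1, which was tested. By day 4 Cd3d, Cd5 and Lck rose in each genotype, by 0.81, 1.08 and 1.00 in WT and by 0.99, 1.09 and 1.25 in D6-deficient skin. The list medians were only 0.19 and 0.01, beside 0.01 over all tested in each, so these genes do not stand for the list. Between the genotypes on day 4 0 of 13 differed in limma (0 at unadjusted p under 0.05), with a median of 0.05 beside -0.01. The mean over the 13 on day 4 was 7.51, 7.52 and 7.40 in WT and 7.25, 7.43 and 7.71 in D6-deficient arrays, and it was lowest in the array with the highest Il17a and Il22. On day 2 Cd4 exceeded its WT level by 0.47 in D6-deficient skin (adjusted p = 0.0298), a call lost without WT day 2 replicate 1, 2 or 3 or D6-deficient day 2 replicate 2 or 3 (0.0614 to 0.222). The array means of the type 17 list on day 4 were 8.21, 8.39 and 8.26 in WT and 8.25, 8.15 and 8.30 in D6-deficient skin. The part of either cell list in the higher Il17a and Il22 was not tested.

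Th1, Th2 and regulatory T cell genes had 10 of 11 tested, Ifng being left out as low. By day 4, 7 rose and 1 fell in WT and 6 rose and 1 fell in D6-deficient skin, with medians of 0.72 and 0.48, and Ctla4 (1.28 and 1.46) and Il10 (1.20 and 1.30) rose most in D6-deficient skin. Gata3 was the 1 that fell (-1.38 and -2.78). On day 4 0 of 10 differed between the genotypes in limma (5 at unadjusted p under 0.05), with a median of -0.26. All 15 markers of antigen-presenting cells, the source of IL-23, were tested. By day 4, 6 rose and 6 fell in WT and 7 rose and 6 fell in D6-deficient skin, with medians of -0.02 and 0.21. Ccr7, by which dendritic cells leave for lymph nodes, rose by 4.37 and 3.75. Between the genotypes on day 4 0 of 15 differed in limma (1 at unadjusted p under 0.05), with a median of 0.00. On day 2 Cd14 was higher (1.62, adjusted p = 0.00231) and Cd207, the Langerhans cell lectin, lower (-2.38, adjusted p = 0.000414) in D6-deficient skin. Irf8, a factor of dendritic cells and macrophages, was higher there by 0.56 (adjusted p = 0.0488), a call lost without any 1 of the 6 arrays of day 2 (0.0858 to 0.161), and its other probe set gave 0.52 (0.14).

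Neutrophils are drawn by chemokines that IL-17A induces, and 10 of 14 symbols of their markers were tested, 1 of the others, Il8rb, being an older name of Cxcr2. By day 4, 7 rose in WT and 8 in D6-deficient skin, with medians of 3.32 and 2.60. On day 2, 6 of 10 were higher in D6-deficient skin (2.46% of all tested were), among them Ngp (4.82), Ltf (3.82), Camp (3.28) and Mmp8 (3.13), with a median of 1.56 beside -0.02. Stfa3 of this list went the other way relative to day 0, differing by -2.57 on day 2 and -2.40 on day 4. Its day 4 call was lost without any 1 of 10 arrays. On day 4, 1 of the 10 was higher in D6-deficient skin (0.289% of all tested were). It was the chemokine receptor gene Cxcr2, chosen after its values were seen. Cxcr2 read 9.44, 8.63 and 9.59 in WT and 10.20, 10.46 and 10.13 in D6-deficient skin. It differed by 1.05 (adjusted p = 0.0079, 3 of 3 arrays above all WT), lost without WT day 4 replicate 2 (0.75, adjusted p = 0.0714) or D6-deficient day 4 replicate 2 (0.95, adjusted p = 0.058). The list mean on day 4 was 8.95, 8.45 and 9.23 in WT and 9.68, 9.02 and 8.99 in D6-deficient arrays, with its highest value in the array highest in Il17a and Il22. On day 2 it was 7.38, 7.99 and 7.47 in WT and 8.81, 9.64 and 10.27 in D6-deficient arrays.

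Keratinocyte markers moved beside the members on day 4. Of 10, all tested, 2 rose and 5 fell in WT and 0 rose and 7 fell in D6-deficient skin by day 4, with medians of -0.27 and -1.44. Between the genotypes on day 4 Krt5 (-0.66, adjusted p = 0.022) and Dsg1a (-1.21, adjusted p = 0.0077) were lower in D6-deficient skin (0.225% of all tested were), with a median of -0.64 beside -0.01. Relative to day 0, 6 of 10 were lower (0.416% of all tested were), with a median of -1.31 beside 0.00. Of these, Sfn, Dsg1a, Dsc3 and Trp63 were each lost without any 1 of 5 to 9 arrays (adjusted p = 0.05 to 0.115). The list was already higher in D6-deficient skin on day 0, with array means of 12.34, 12.23 and 12.29 against 11.79, 11.69 and 11.67 in WT, and Krt5 (0.70), Krt14 (0.73), Trp63 (0.71) and Sfn (1.07) were higher there, so the relative values hold that gap as well as the day 4 one. Each of these 4 day 0 calls was lost without any 1 of 2 to 6 day 0 arrays (adjusted p = 0.051 to 0.138), and other probe sets did not all pass, at -0.02 (0.98) and 0.51 (0.45) for Krt14 and 0.20 (0.86), 0.16 (0.88) and 0.86 (0.19) for Trp63. The list mean on day 4 was 10.86, 11.50 and 10.50 in WT and 9.56, 10.50 and 10.40 in D6-deficient arrays, and its lowest value was in the array highest in Il17a and Il22. Its part in the difference in Il17a and Il22 was not tested. The Krt5 call was lost without replicate 1 or 2 of either genotype on day 4 (adjusted p = 0.0636 to 0.158), and the Dsg1a call without WT day 4 replicate 2 (-0.95, adjusted p = 0.0818) or D6-deficient day 4 replicate 1 (-0.96, adjusted p = 0.0567).

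**Figure D5:**
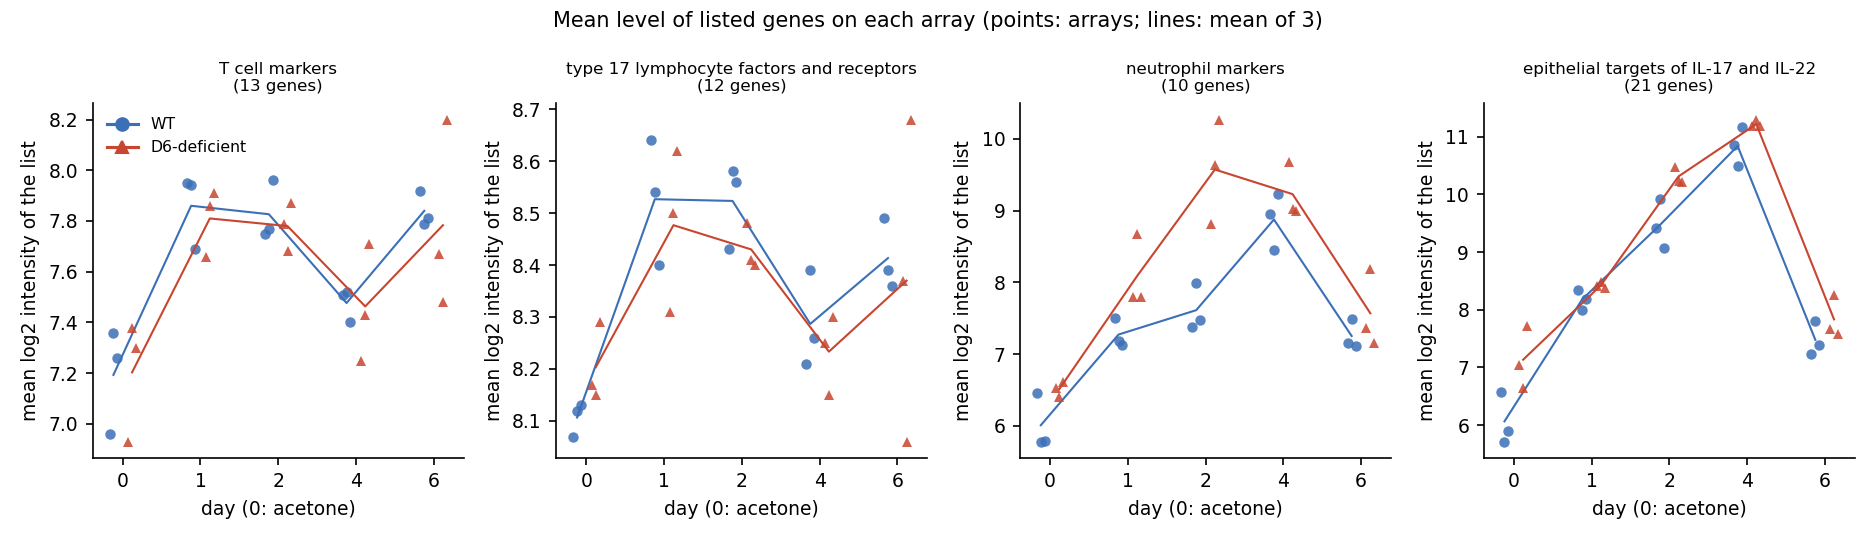
Mean log2 intensity of the tested genes of the T cell, type 17 lymphocyte, neutrophil and epithelial target lists in each array against days after the last TPA application, with lines through the means of 3 arrays. The epithelial targets rise to 10.49 to 11.30 on day 4 in both genotypes, and the neutrophil list is higher in D6-deficient arrays on day 2.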

How the data were processed

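RNA of whole back skin was measured on 30 Affymetrix Mouse Genome 430 2.0 arrays. The intensity values as deposited were normalized by RMA in GeneSpring GX according to the authors' methods, although their file header calls them raw. They were treated as linear RMA values and log2 was taken; array medians then lay between 5.642 and 5.799. Probe sets were matched to genes by the platform's symbols. The 64 control probe sets were left out, as were the 9008 with the lowest 20% of means over all arrays. On the other 36029, limma 3.58.1 in R 4.3.3 fitted 1 mean for each genotype and day (lmFit and eBayes, 20 residual degrees of freedom, two-sided), with Benjamini-Hochberg adjustment over all tested probe sets of a comparison and a threshold of 0.05. Comparisons were each day against day 0, the genotypes on the same day, the genotypes' changes from day 0, and consecutive days. Comparisons within a genotype share its day 0 arrays.

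Lists of other ligands, receptor chains, signalling genes, epithelial targets, type 17 lymphocyte genes, T cell, antigen-presenting cell, neutrophil, Th1, Th2 and regulatory T cell, and keratinocyte genes were read by each gene's brightest probe set. By rule, each list gave the genes with adjusted p under 0.05 between the genotypes, at most the 4 with the largest absolute change, and the 2 with the largest increase by day 4 in D6-deficient mice. Other list genes named in the text, Csf3, Cxcr2, Stfa3, Dsc3 and Trp63 among them, were chosen after their values were seen. A gene of the type 17 list and a motif are not reported here. The members and lists were chosen with earlier results of these data known. For each member the 3 genes with the highest Pearson r over 30 arrays are given.

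Alternatives were no filter, median-centred arrays, an intensity trend in eBayes, a term for dim or bright hybridization controls, a replicate block, the mean of a gene's probe sets, the arrays of the comparison alone, more than 3-fold change in addition, the methods' t-test, and each array left out in turn. The code was tested on simulated data. Promoter sequences are from RefSeq, GRCm38.p6. Python 3.11.15, pandas 2.3.3, numpy 2.4.6, scipy 1.17.1 and matplotlib 3.10.9 were used.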

Additional observations from a re-analysis of the deposited data

Results flagged for a closer look

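Each result here is a difference between the genotypes' own changes that passed its test in limma, given as the D6-deficient change minus the WT change in log2 intensity. No cause was tested. Among the members, Il22 differed by 3.00 in its change from day 0 to day 4 and by 3.83 in its step from day 2 to day 4. The latter was lost in a fit to its own arrays (adjusted p = 0.0802), and the former without any 1 of 8 arrays (adjusted p = 0.0557 to 0.0877).

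In the change from day 0 to day 2, 2 of 8 receptor genes (Il22ra2 by -2.27 and Il17rc by -0.83) and 1 of 18 signalling genes (Zc3h12a by -1.39) were lower in D6-deficient skin, where 2.62% of all tested probe sets were lower and 5.4% passed in either direction. Of the epithelial targets Cxcl3 differed by 4.17, Cxcl5 by 2.58 and Ccl20 by -3.37. Among genes of the lymphocyte lists, Rora differed by -1.48, Ahr by -0.82, Cd4 by 0.64, Gata3 by -1.46 and Cxcr3 by 1.20. The cells of whole skin from which these were read were not tested. Markers of antigen-presenting cells differed by -2.75 for Cd207 and 2.06 for Cd14. The neutrophil markers Ngp (4.63), Ltf (3.81), Camp (3.20), Mmp8 (3.24) and Csf3r (1.85) were higher and Stfa3 (-2.57) lower, and the keratinocyte factor Trp63 was lower (-0.97).

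In the change from day 0 to day 4, the growth factor gene Csf3 was higher in D6-deficient skin, by 1.81. Il17re (-0.60) and Stfa3 (-2.40) were lower, as were the keratinocyte markers Sfn (-1.68), Dsg1a (-1.57), Krt5 (-1.36), Krt14 (-1.23), Dsc3 (-1.21) and Trp63 (-1.03). Other probe sets of Il17re, Zc3h12a, Rora, Ahr, Krt14, Dsc3 and Trp63 did not all pass.

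Leaving out single arrays ended several of these calls. By day 2 this held for Ahr without any 1 of 11 arrays (adjusted p = 0.0501 to 0.0963), Cd4 without 8 (up to 0.105), Ltf without 8 (up to 0.0899), Camp without 7 (up to 0.0853), Gata3 without 5 (up to 0.0912), Cxcr3 without 4 (up to 0.0622) and Ngp without WT day 2 replicate 1 (0.0549) or D6-deficient day 2 replicate 3 (0.0519). By day 4 it held for Stfa3 without any 1 of 10 arrays (up to 0.14), Sfn and Trp63 without 9 (up to 0.0877 and 0.115), Dsc3 without 7 (up to 0.105) and Dsg1a without 5 (up to 0.0713).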

How the results depend on the processing

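Of the member tests, none changed direction after passing under any alternative run, and an intensity trend in eBayes kept each of them on the same side of the threshold. The difference in Il17a on day 4 was lost under 4 settings, at 1.86 with a hybridization term (adjusted p = 0.0516), 1.83 with its own arrays alone (adjusted p = 0.303), and 1.83 by the methods' test, which gave 0.0792 unadjusted with more than 3-fold in addition and 0.684 adjusted. By the adjusted t-test Il22 on day 4 was 3.30 (0.476), and relative to day 0 it was 2.85 (0.129).

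Some counts over the 6 tested probe sets changed as follows, and other settings moved single calls. Changes from day 0 that passed went from 13 to 3 with more than 3-fold in addition, to 3 by the t-test with more than 3-fold and to 4 by the adjusted t-test. Genotype differences on the same day went from 2 to 1 with a hybridization term, 1 with the comparison's own arrays, 1 by the t-test with more than 3-fold and 0 by the adjusted t-test. Differences relative to day 0 went from 1 to 0 by the adjusted t-test, and steps from 11 to 4 with more than 3-fold. The rise of Il12b in WT by day 2 was lost under 6 settings, and the Il22 step difference from day 2 to day 4 with its own arrays (3.83, adjusted p = 0.0802). Own arrays also ended the D6-deficient step of Il17a from day 2 to day 4 (1.41, adjusted p = 0.209). They gained Il12b in D6-deficient skin on day 1 (0.35, adjusted p = 0.0361). With the mean of its probe sets Il12b gained changes from day 0, given above, and a WT step from day 2 to day 4 (-0.38, adjusted p = 0.0201).

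Leaving out each array in turn gave 9 to 15 changes from day 0, 1 to 2 same-day differences, 0 to 1 relative to day 0 and 10 to 13 steps. The day 4 difference was 1.13 to 2.39 for Il17a (adjusted p = 0.00682 to 0.231) and 2.87 to 3.67 for Il22 (0.000827 to 0.00544). Relative to day 0 it was 0.93 to 2.19 for Il17a and 2.57 to 3.37 for Il22 (0.0306 to 0.0877). Over all member tests, these included, 31 calls were lost and 13 gained in this way.

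Among the named genes, the change of Trp63 by day 2 in D6-deficient skin, -0.41, became 0.01 (adjusted p = 0.98) with the mean of its probe sets. Replicate numbers do not pair samples: same-number arrays had a median r of -0.0097 and others 0.00785 after group means were removed. With a replicate block Il12b in WT on day 2 was lost (0.41, adjusted p = 0.0568) and Il22 in D6-deficient skin on day 2 gained (1.09, adjusted p = 0.049).

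Groups of 3 limit precision, and Il22 and Il12b lay near the lowest signals kept. Il17f and Il23r had no probe set under these symbols, and older symbols were not tried. Leaving out an array leaves 2 in its group, assumed to vary like the other groups. The causes of calls lost under a setting were not tested.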
